A study of Homo sapiens with 16 samples.

Results

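The sites described here are places in the genome of LoVo cells where the nuclear receptor HNF4A and the helix-loop-helix factor MYC were found together in early S phase, with neither the third factor of the study, KLF5, nor the cohesin subunit RAD21 nor CTCF. They were selected on the S-phase peak calls of the deposited lists: a pair site is an S-phase HNF4A peak that overlaps an S-phase MYC peak by at least 1 bp and overlaps no S-phase peak of KLF5, RAD21 or CTCF. Of the 15437 S-phase HNF4A peaks, 1742 met this rule, which is 11.3% of them and 33.6% of the 5191 HNF4A peaks with MYC. The S-phase lists chose these sites, so their S-phase values below are a description. What the rule did not use is the M-phase lists, and the comparison made is which of the 2 factors was listed again in M phase.

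HNF4A binds DNA as a dimer at direct repeats of a short nuclear-receptor motif and is a master regulator of liver and gut epithelial genes. MYC binds with its partner MAX at E-box sequences, often near gene starts, and drives growth and proliferation. KLF5 is a Krüppel-like zinc-finger factor of dividing gut cells. Cohesin holds sister chromatids together and gathers at sites of the zinc-finger protein CTCF. In mitosis most transcription stops, chromosomes condense, and many sequence-specific factors leave most of their sites, while some remain at a part of them, which is often called mitotic bookmarking.

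LoVo is an established human colon adenocarcinoma line, and binding was measured by chromatin immunoprecipitation and sequencing (ChIP-seq) after fixation in 1% formaldehyde, with 5 µg of each antibody. The M-phase cells came from an incubation of 12 h in 2 mM thymidine and then of 8 h in nocodazole at 200 ng/ml, a drug that blocks the mitotic spindle, and the early S-phase cells from a double block of 12 h in 2 mM thymidine, 8 h of release and 12 h in thymidine again. All groups are this 1 line without any other treatment in the labels, and the labels give no measure of how pure either arrest was. There was 1 library per target and phase, so no difference between phases can be set against a spread between samples, no test across samples exists, and all 95% intervals below are over sites and cover counting error only. The HNF4A libraries held 16813394 filtered tags in M phase and 12182221 in S phase, the MYC libraries 15344922 and 9282892, and the lists hold 2413 and 15437 HNF4A peaks and 1974 and 11941 MYC peaks in the same order. In the labels the rabbit IgG control of M phase carries a peak number, 2118, that equals the number of M-phase KLF5 peaks. That control was used to call the M-phase HNF4A, MYC, KLF5, RAD21 and H3 peaks, and whether the libraries were exchanged was not tested. H3 peaks, from the chromatin control, met 1 pair site in M phase and 9 in S phase, against 0.0453% and 0.428% of all S-phase HNF4A peaks.

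In S phase the pair sites were ordinary HNF4A and MYC peaks in strength. Strength is given by the MACS score, -10 times the log10 of the peak's p-value, for which the calling cutoff is 50. The median HNF4A score was 91.99 at pair sites, against 97.05 over all S-phase HNF4A peaks, and the median score of the paired MYC peak was 105.21, against 111.82 over all S-phase MYC peaks. In deposited tags the medians were 31 for HNF4A, with a range of 12 to 257, and 29 for MYC, with a range of 11 to 317. The sites thus ran from peaks close to the calling cutoff to some of the strongest in either list. The 2 scores went together weakly and in opposite directions, with a Spearman's rho of -0.134 over the 1742 sites, which share the same 2 libraries.

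At 1359 of the 1742 sites, the HNF4A and MYC peaks shared at least 50% of each peak. The rule requires these wide peaks to overlap, so a shared stretch is partly built in. It cannot tell whether both factors bound the same sequence or neighbouring ones. The HNF4A peaks had a median width of 1180 bp and the MYC peaks of 1366 bp, and they shared a median of 969 bp. Their summits, the positions of highest tag pile-up, lay a median of 176 bp apart (quartiles 62 and 484 bp). At 628 sites the summits were within 100 bp, and at 125 they were more than 1000 bp apart. Nearly all sites were simple pairs, with 1 MYC peak at 1722 of them and 2 at the other 20, and 35 MYC peaks each served 2 pair sites. At the edge of the rule, the smallest overlaps were 4 bp on chromosome 12 (54868030 to 54869248), 6 bp on chromosome 2 (180579611 to 180580328) and 16 bp on chromosome 1 (58992019 to 58993067). Just outside it, HNF4A peaks with 29, 18 and 45 tags missed a MYC peak by 4, 12 and 14 bp, and none of those 3 was found in M phase.

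The sites were spread over the genome. They lay on all of chromosomes 1 to 22 and X, and made up between 5.76% of the HNF4A peaks on chromosome X (11 of 191) and 13.9% of those on chromosome 21 (21 of 151). The median distance to the next pair site was 275320 bp, and 171 sites had another within 10000 bp. The median distance to the nearest S-phase peak was 73754 bp for KLF5, 20577 bp for RAD21 and 20138 bp for CTCF. Between 83 and 88 sites lay within 1000 bp of a peak of each of these proteins without touching it.

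In M phase each factor was found at about 1 pair site in 9, but seldom both at the same one. HNF4A was listed in M phase at 195 of the 1742 sites (11.2%, 95% Clopper-Pearson interval 9.75 to 12.8%), where the share over all S-phase HNF4A peaks was 12.3%. MYC was listed at 212 sites (12.2%, 10.7 to 13.8%), where the share over all S-phase MYC peaks was 12.6%. Both shares were close to those of the full lists. HNF4A minus MYC was -0.976 percentage points over the same sites, with an interval for paired shares of -3.15 to 1.20, so neither factor was kept more often than the other beyond counting error. This depended on how pair sites and kept peaks were defined. With at least 50% of each M-phase and S-phase peak shared, HNF4A was kept at 4.94% of pair sites, against 6.68% of all S-phase HNF4A peaks, and MYC at 8.84%, against 9.6% of all S-phase MYC peaks, a difference of -3.90 points (-5.59 to -2.21). With 50% of each S-phase HNF4A and MYC peak shared to make a pair site, the difference was 2.43 points (0.0664 to 4.79), and with the 1000 strongest M-phase peaks of each factor -1.84 points (-3.47 to -0.201).

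The outcomes at single sites fell into 4 classes. HNF4A alone was found in M phase at 178 sites (10.2%, 8.84 to 11.7%), MYC alone at 195 (11.2%, 9.75 to 12.8%) and neither at 1352 (77.6%, 75.6 to 79.6%). Both were found at 17 sites (0.976%, 0.569 to 1.56%), where the share over all S-phase HNF4A peaks with MYC was 1.71%. Of the 390 sites that kept any factor, these 17 are 4.36% (2.56 to 6.89%). Where HNF4A was kept, MYC was kept at 8.72% of sites (5.16 to 13.6%), and where HNF4A was not kept, at 12.6% (11.0 to 14.4%), a difference of -3.89 points (-7.54 to 1.16), which was within counting error. An M-phase MYC peak lay within 1000 bp of the HNF4A peak at 3 of the 178 sites with HNF4A alone. At 2 of the 195 with MYC alone, an M-phase HNF4A peak lay that close. By definition these classes lack an M-phase partner peak at the partner's S-phase peak, so low counts were largely built in. No share over other sites was computed beside these counts. Partner peaks under the calling cutoff are not in the lists, and whether there were any was not tested.

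Which factor was found in mitosis went with which was strong in S phase. The median HNF4A score was 385 at the sites that kept HNF4A alone, 77.2 at those that kept MYC alone and 84.8 at those that kept neither. The MYC score ran the other way, with medians of 81.3 at sites with HNF4A alone, 316 at sites with MYC alone and 98.8 at sites with neither. At the 17 sites with both, the medians were 305 for HNF4A and 146 for MYC. Sites that kept 1 factor alone thus stood high in that factor and near or below the level of unkept sites in the other.

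**Figure D1:**
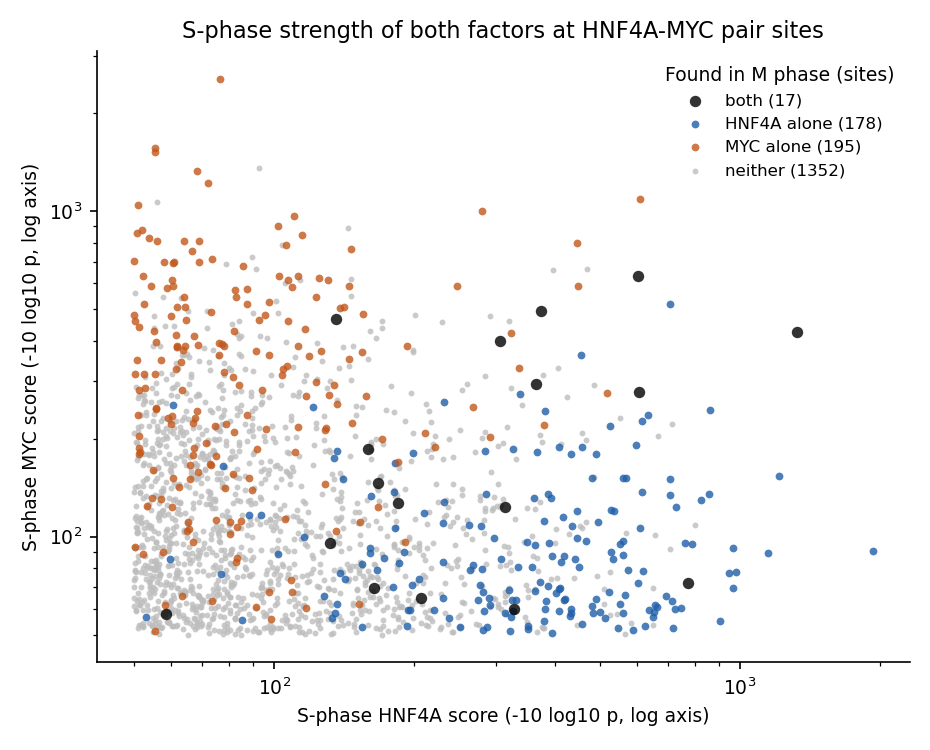
S-phase HNF4A score (horizontal) against S-phase MYC score of the paired peak (vertical) at the 1742 pair sites, both on log axes, 1 point per site, coloured by what was listed in M phase. Sites with HNF4A alone (178) lie to the right and low, sites with MYC alone (195) to the left and high, and the 17 sites with both are scattered, mostly to the right.

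By HNF4A score the sites were ranked into weak, middle and strong groups of equal size. M-phase HNF4A was listed at 4 of 581 weak sites (0.688%), 12 of 580 middle sites (2.07%) and 179 of 581 strong sites (30.8%, 27.1 to 34.7%). The strong group therefore held 91.8% of the sites that kept HNF4A. MYC at the same groups went down as HNF4A went up, with 15.0% of weak, 13.6% of middle and 7.92% of strong sites. Divided by MYC score instead, MYC was kept at 2.75% of weak, 5.86% of middle and 27.9% (24.3 to 31.7%) of strong sites, and the strong group held 76.4% of the sites that kept MYC. HNF4A again went the opposite way, with 14.8%, 12.8% and 6.02% of the same groups.

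Both divisions together gave the highest shares where 1 factor was strong and its partner weak. At sites strong in HNF4A, HNF4A was kept at 80 of 224 sites with weak MYC (35.7%, 29.4 to 42.4%), 68 of 217 with middle MYC (31.3%) and 31 of 140 with strong MYC (22.1%, 15.6 to 29.9%). At sites strong in MYC, MYC was kept at 69 of 230 sites with weak HNF4A (30%, 24.2 to 36.4%), 59 of 211 with middle HNF4A and 34 of 140 with strong HNF4A (24.3%, 17.4 to 32.2%). Only 8 of the 17 sites with both factors were strong in both. Among the 140 sites strong in both, MYC was kept at 8 of the 31 that kept HNF4A and at 26 of the 109 that did not, a difference of 1.95 points (-13.0 to 20.8), so the 2 outcomes could not be told from unrelated there.

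**Figure D2:**
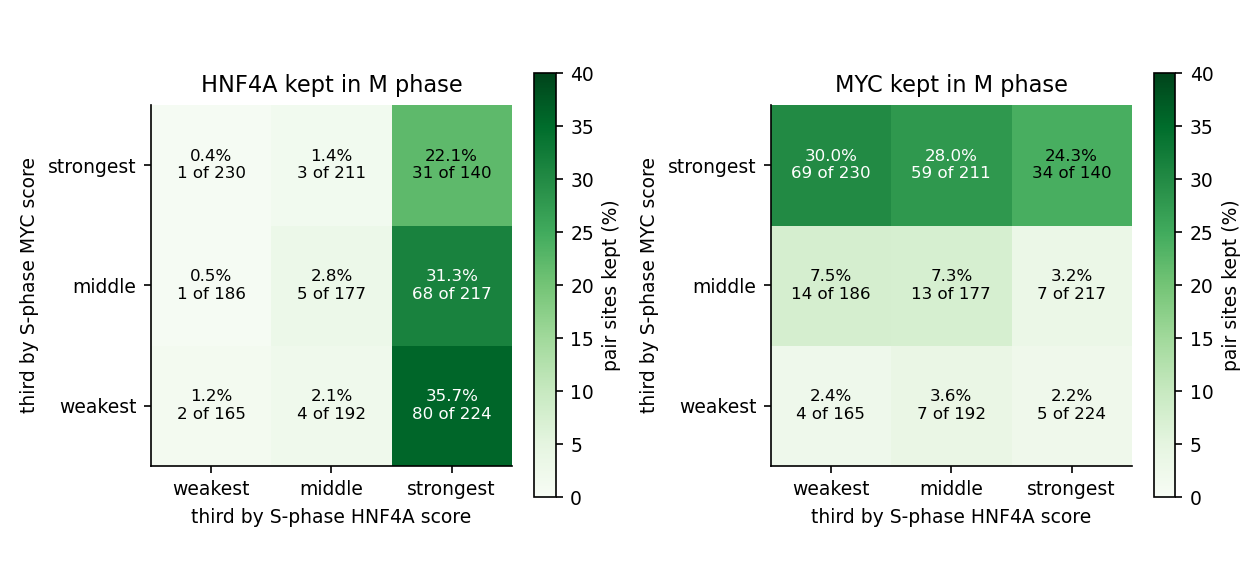
Share of pair sites that kept HNF4A (left) and MYC (right) in M phase, with counts, for 3 equal groups by S-phase HNF4A score (columns) and 3 by S-phase MYC score (rows). HNF4A was kept at 22.1 to 35.7% of sites in its strong column and at no more than 2.82% elsewhere, and MYC at 24.3 to 30.0% in its strong row and at no more than 7.53% elsewhere.

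The decline with the partner's strength was larger than counting error, and part of it went with the factor's own score. HNF4A was kept at 14.8% of sites with weak MYC and 6.02% of those with strong MYC, a difference of 8.78 points (Newcombe interval 5.30 to 12.3). Compared within 10 equal groups of the HNF4A score, the difference was 4.41 points (1.75 to 7.06). MYC was kept at 15.0% of sites with weak HNF4A and 7.92% of those with strong HNF4A, a difference of 7.06 points (3.41 to 10.7), and of 3.30 points (0.206 to 6.39) within 10 groups of the MYC score.

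HNF4A was kept at like shares whatever the distance between the summits. It was kept at 11.0% of the 628 sites with summits within 100 bp and at 11.2% of the 125 with summits over 1000 bp apart, and at 9.69 to 12% in between. MYC was kept at 12.3% of the closest and 18.4% (12.0 to 26.3%) of the farthest pairs, with a low of 8% (5.54 to 11.1%) at 101 to 250 bp. The median MYC score was likewise lowest, 85.5, at 101 to 250 bp and highest, 176, over 1000 bp, and its part in the MYC shares was not tested.

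Where a factor was kept, its M-phase peak held fewer tags for the library's depth than the S-phase one, and most were narrower. For HNF4A, 192 sites paired a single M-phase peak with a single S-phase peak, and per 1000000 filtered tags the median peak held 1.49 over 780.5 bp in M phase, against 6.53 over 1627 bp in S phase. The 201 such MYC peaks had 1.96 over 1220.0 bp in M phase, against 6.79 over 1784 bp in S phase. Scaled to width, HNF4A had 1.90 tags per 1000000 per kb in M phase, against 3.79 in S phase, and MYC 1.61, against 3.43. The density and the tags per 1000000 were lower in M phase at all 192 HNF4A and all 201 MYC sites, and the peak was narrower at all 192 HNF4A and at 188 of the 201 MYC sites. The widths were called separately in each phase, and the fragment size that MACS fitted was also smaller in M phase, 176 bp against 240 bp for HNF4A and 262 bp against 278 bp for MYC. None of the M-phase HNF4A peaks at pair sites had a false discovery rate (FDR) under 5% and 11 of the 208 M-phase MYC peaks did, so nearly all outcomes rest on peaks that passed the p-value cutoff only. This was a trait of the full M-phase lists, where all 2413 HNF4A peaks and 1888 of the 1974 MYC peaks had an FDR of 5% or more.

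**Figure D3:**
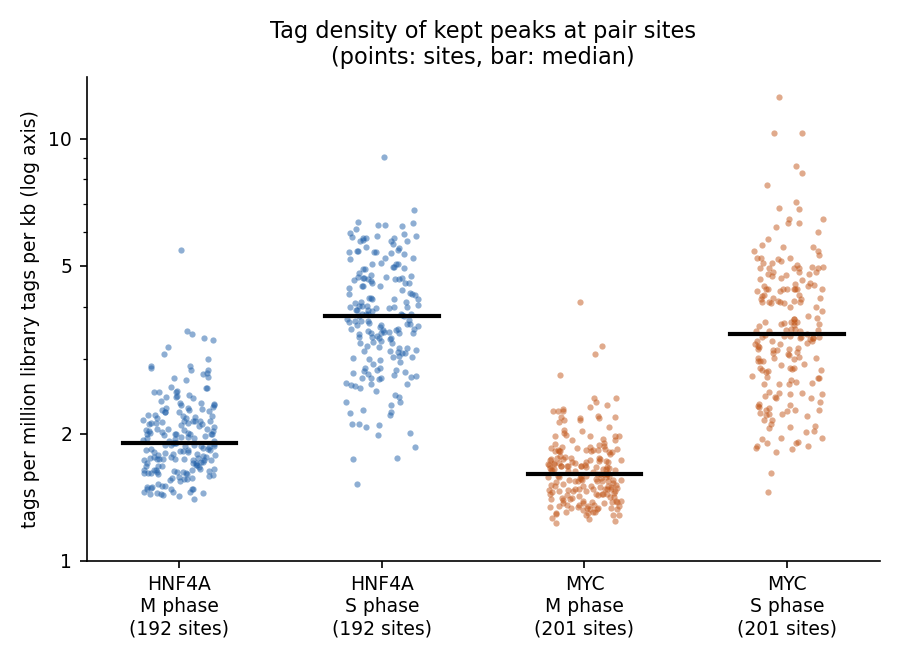
Tags per 1000000 library tags per kb of called peak (log axis) in M phase and S phase, at pair sites with 1 peak in each phase (192 for HNF4A, 201 for MYC), with 1 point per site and a bar at the median. The M-phase medians are 1.90 for HNF4A and 1.61 for MYC, below the S-phase medians of 3.79 and 3.43.

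At most kept sites the M-phase summit lay nearer the factor's own S-phase summit than its partner's. This held at 148 of the 192 sites with 1 HNF4A peak in each phase, and at 144 of 201 for MYC. A kept peak overlaps the factor's own S-phase peak by definition, which favours its own summit, so these distances are a description. M-phase HNF4A summits were a median of 57.5 bp from the S-phase HNF4A summit and 192 bp from the S-phase MYC summit. M-phase MYC summits were 64 bp from the S-phase MYC summit and 262 bp from that of HNF4A. Where the S-phase summits of the factors were over 250 bp apart, 68 of 75 M-phase HNF4A peaks and 77 of 92 M-phase MYC peaks lay nearer their own.

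Single sites show each outcome. Positions are in the human build hg18, fold enrichment is the authors' value over IgG, and tags are as deposited, from libraries that were 1.38 (HNF4A) and 1.65 (MYC) times as deep in M phase as in S phase. No annotation of this build was used here, so no site is assigned to a gene. The leading site with both factors lay on chromosome 2 from 120151680 to 120154128, where HNF4A had 38 tags in M phase, against 188 at 87.35-fold in S phase, and MYC had 31 in M phase, against 62 at 33.4-fold in S phase. Its S-phase summits were 22 bp apart, and it stood first among the sites with both factors by either factor's fold. On chromosome 11 from 73264715 to 73266078, HNF4A had 28 tags in M phase, against 65 in S phase, and MYC 37, against 71. Another on the same chromosome, from 17330368 to 17332808, also carried RAD21 and CTCF peaks in M phase, with 15 HNF4A and 62 MYC tags, against 120 and 127 in S phase. The M-phase HNF4A and MYC peaks overlapped each other at 15 of the 17 sites.

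HNF4A alone was found at the site with the highest S-phase HNF4A score of all pair sites, on chromosome 12 from 66427032 to 66429368. It held 151 tags in M phase together with a RAD21 peak, against 257 at 56.22-fold in S phase, where the MYC peak had 38 tags at 5.07-fold. On chromosome 2 from 98684753 to 98686105, HNF4A had 39 tags in M phase, against 89 at 50.81-fold in S phase, beside an S-phase MYC peak of 25 tags. A site on chromosome 1 from 232802554 to 232804241 had 41 HNF4A tags in M phase, against 114 in S phase with 23 MYC tags. By MYC score these 3 were all in the middle group, at 90.27, 150.21 and 129.38, and that group ended at 151.32. None was in the weak group. HNF4A alone was also kept on chromosome 12 from 51671186 to 51674081, where the S-phase MYC peak was strong, with 90 tags at 17.54-fold. The reverse of the common pattern was seen on chromosome 2 from 219960410 to 219960983, where a small HNF4A peak was kept, with 13 tags in each phase, and the stronger MYC peak of 34 tags at 23.69-fold was not.

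MYC alone was found on chromosome 7 from 44991711 to 44993395, the site with the highest MYC score, which held 121 MYC tags in M phase, against 317 at 56.57-fold in S phase, where HNF4A had 53 tags at 5.52-fold. Its summits were 3 bp apart. On chromosome 2 from 74915440 to 74916166, MYC had 42 tags in M phase, against 145 at 69.31-fold in S phase, with 14 HNF4A tags. Both were strong MYC peaks, with an HNF4A score of 76.43 at the first site, in the middle group, and of 55.54 at the second, in the weak group. On chromosome 2 from 96237545 to 96239142, by contrast, HNF4A was strong too, with 70 tags at 31.05-fold, and only MYC was kept, with 18 tags in M phase beside a CTCF peak, against 87 in S phase.

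Strength in S phase did not settle the outcome. Neither factor was found in M phase on chromosome 2 from 64323399 to 64325142, with 98 HNF4A tags at 47.04-fold and 37 MYC tags at 18.88-fold in S phase. The same held on chromosome 11 from 57688983 to 57690551, with 90 HNF4A tags at 46.89-fold. Among strong MYC peaks, neither factor was found on chromosome 3 from 143779686 to 143781006, with 86 MYC tags at 38.85-fold, nor from 125931406 to 125932473 on the same chromosome, with 61 MYC tags at 35.97-fold.

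The presence of MYC was set against its absence at HNF4A peaks that had none of the other proteins. HNF4A was kept at 11.2% of pair sites and at 11.3% (10.7 to 12.0%) of the 8221 sites with HNF4A only, a difference of -0.143 points (-1.71 to 1.56). Within 10 equal groups of the HNF4A score, the difference was -2.10 points (-3.48 to -0.717), and within 5 groups -0.982 points (-2.41 to 0.448), so whether it exceeded counting error at a like score turned on the number of groups. With 50% of each M-phase and S-phase peak shared, and no grouping by score, it was -1.86 points (-2.94 to -0.626), beyond counting error. For MYC peaks, the share was 11.3% of the 1683 that met HNF4A and no other protein and 11.0% of the 3453 that met none, a difference of 0.313 points (-1.48 to 2.20), or -1.38 points (-3.07 to 0.310) within 10 groups of the MYC score. MYC with and without HNF4A thus differed by less than counting error.

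Sites that had KLF5 as well kept each factor more often with 1 bp of overlap, and were stronger in S phase. At the 1291 sites with HNF4A, MYC and KLF5 but no RAD21 or CTCF, HNF4A was kept at 14.7% (12.8 to 16.8%), and pair sites minus these sites gave -3.52 points (-5.99 to -1.12). With 50% of each M-phase and S-phase peak shared, this was -1.41 points (-3.15 to 0.231), no longer beyond counting error. The median HNF4A score was 91.99 at pair sites and 110.78 at triple sites, and within 10 groups of the score the difference was -0.137 points (-2.18 to 1.91). MYC was kept at 12.2% of pair sites and 17.7% of triple sites, a difference of -5.57 points (-8.19 to -3.01), which became 1.95 points (-0.492 to 4.39) within 10 groups of the MYC score. At like scores, neither factor's share at pair sites could be told from that at triple sites. Both factors together were found at 4.36% of the pair sites that kept any and 7.99% (5.49 to 11.1%) of such triple sites, a difference of -3.63 points (-7.15 to -0.223). This joint share was not compared at like scores, so the part of S-phase strength in it was not tested.

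Where KLF5 took the place of MYC, the gap was wider. Of the 556 sites with HNF4A and KLF5 but no MYC, RAD21 or CTCF, 19.96% kept HNF4A (16.7 to 23.5%), and pair sites minus these gave -8.77 points (-12.6 to -5.29). These sites had a median HNF4A score of 121.66, and within 10 groups of the score the difference was -3.65 points (-6.63 to -0.659). This comparison was added after the shares had been seen.

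**Figure D4:**
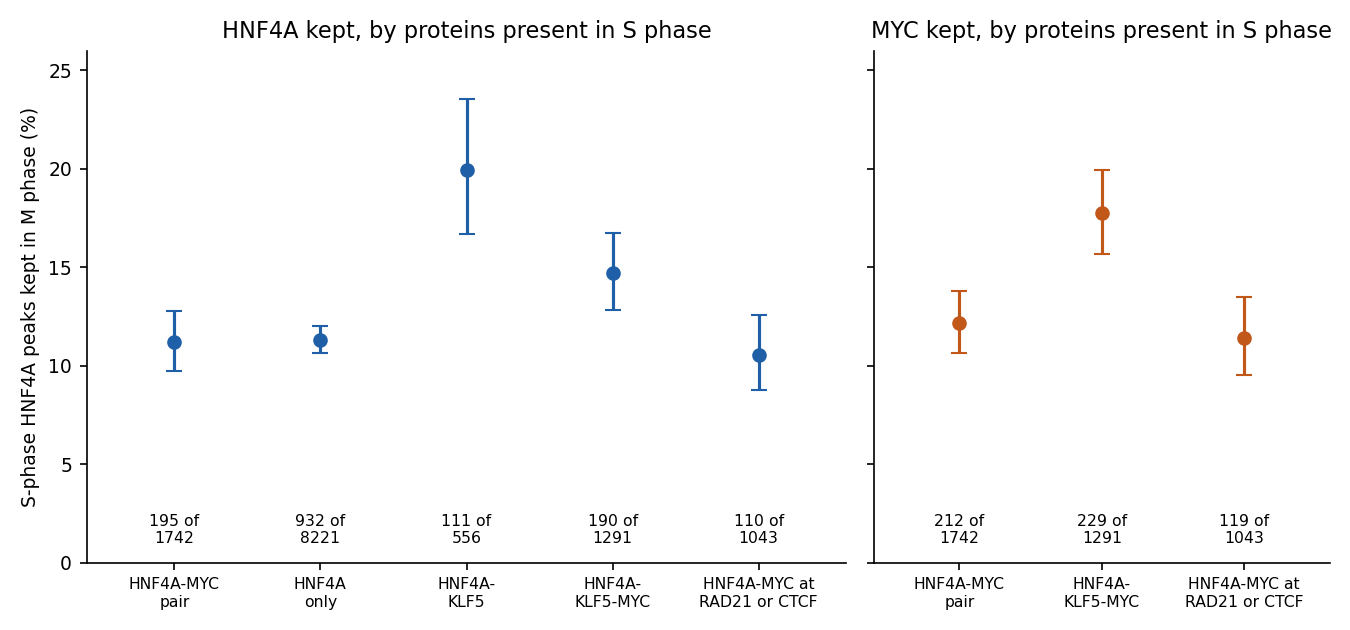
Share of S-phase HNF4A peaks at which HNF4A (left) or MYC (right) was listed in M phase, by the other proteins present in S phase, with 95% Clopper-Pearson intervals and counts. HNF4A was kept at 11.2% of pair sites and 11.3% of HNF4A-only sites, against 19.96% with KLF5 alone, and MYC at 12.2% of pair sites against 17.7% with KLF5.

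Pair sites were also set against sites where cohesin or CTCF joined HNF4A and MYC in S phase. HNF4A was kept at 11.2% of pair sites and at 10.5% (8.75 to 12.6%) of the 1043 HNF4A-MYC sites that had RAD21 or CTCF and no KLF5, a difference of 0.648 points (-1.80 to 2.98), or 1.55 points (-0.335 to 3.43) within 10 groups of the score. MYC was kept at 12.2% and 11.4% of the same classes, a difference of 0.761 points (-1.77 to 3.17). Neither difference was larger than counting error.

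RAD21 and CTCF, absent from the pair sites in S phase by the rule, were listed at some of them in M phase. RAD21 had an M-phase peak at 113 pair sites (6.49%, 5.38 to 7.75%) and CTCF at 88 (5.05%, 4.07 to 6.19%), and both at only 14. Over all S-phase HNF4A peaks, many of which have these proteins in S phase too, the shares were 13.4% and 12.1%. The M-phase peaks at pair sites were weak, with median scores of 66.3 for RAD21 and 67.2 for CTCF, against 128.53 and 120.31 over their full M-phase lists. Of these peaks, 12 of 113 for RAD21 and 3 of 87 for CTCF had an FDR under 5%. In the full M-phase lists, 8659 of 22966 RAD21 and 15474 of 24391 CTCF peaks had an FDR of 5% or more. At pair sites, 4 of the RAD21 peaks met an S-phase RAD21 peak outside the HNF4A peak. The M-phase RAD21 and CTCF libraries were 2.19 and 1.89 times as deep as those of S phase, and the part of depth in these M-phase peaks was not tested.

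These M-phase peaks were not found equally at all sites that lacked RAD21 and CTCF in S phase. RAD21 was listed at 6.49% of pair sites, against 2.72% of HNF4A-only sites, a difference of 3.76 points (2.63 to 5.06), and against 3.42% of MYC-only peaks, a difference of 3.07 points (1.82 to 4.44). CTCF was listed at 5.05% of pair sites, against 0.511% of HNF4A-only sites, a difference of 4.54 points (3.59 to 5.68), but against 5.44% of MYC-only peaks, a difference of -0.393 points (-1.63 to 0.942). Over the 1683 MYC peaks that met HNF4A and no other protein, which are wider than HNF4A peaks, the shares were 6.71% for RAD21 and 5.41% for CTCF. Over all listed peaks, whatever their FDR, RAD21 was thus more frequent at pair sites than at peaks of either factor alone. CTCF was more frequent than at HNF4A-only sites but within counting error of MYC-only peaks. Neither was particular to pair sites. The 1291 triple sites with KLF5, which also lacked RAD21 and CTCF in S phase, had RAD21 at 10.8% (9.13 to 12.6%) and CTCF at 7.13% (5.78 to 8.67%).

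Among the pair sites, M-phase RAD21 was more frequent where a factor was kept. It was listed at 23 of the 178 sites with HNF4A alone (12.9%), 20 of the 195 with MYC alone (10.3%) and 68 of the 1352 with neither (5.03%). HNF4A alone minus neither was 7.89 points (3.54 to 13.7) and MYC alone minus neither 5.23 points (1.48 to 10.4). The HNF4A peaks over which RAD21 was counted had median widths of 1615, 1162 and 1132.5 bp in these 3 classes, in the same order. The part of width in these shares was not tested. Among the sites strong in HNF4A, RAD21 was listed at 13.4% of those that kept HNF4A and 6.22% of those that did not, a difference of 7.19 points (2.12 to 13.3). Among sites strong in MYC, the shares with MYC kept and not kept were 6.79% and 5.01%. That difference, 1.78 points (-2.11 to 7.02), was within counting error. For CTCF no such difference exceeded counting error, with 2.81% at sites with HNF4A alone, 7.69% at sites with MYC alone and 4.88% at sites with neither. RAD21, HNF4A and MYC in M phase were all called against the same IgG library.

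**Figure D5:**
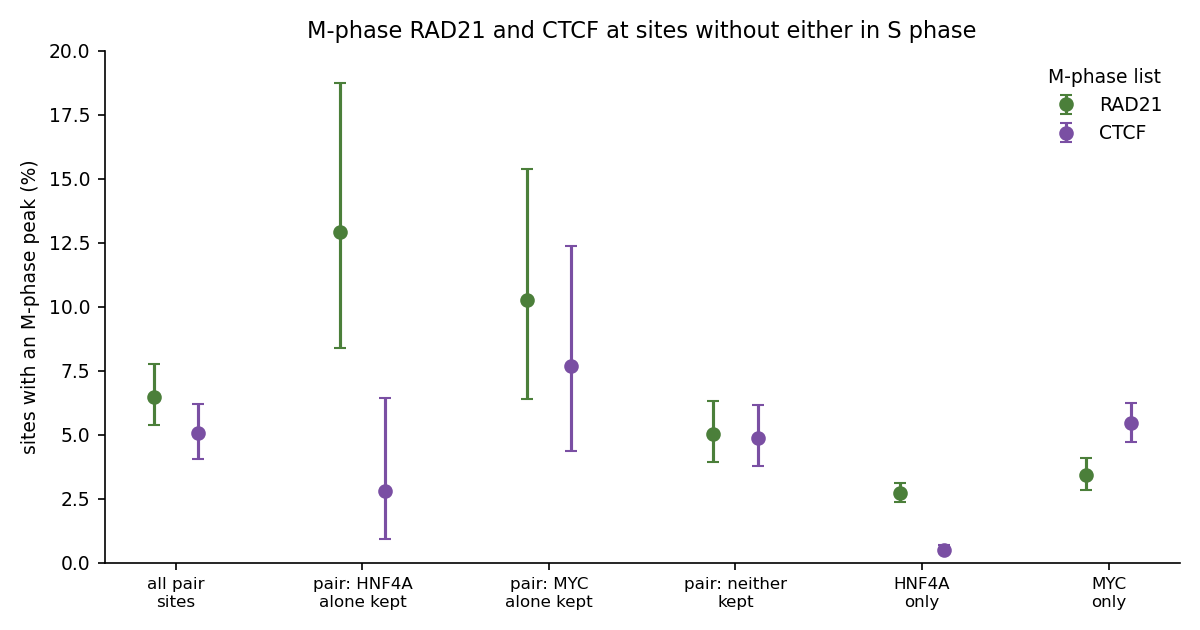
Share of sites with an M-phase RAD21 or CTCF peak among sites that had neither protein in S phase, with 95% Clopper-Pearson intervals, for all pair sites, for pair sites by outcome, and for HNF4A-only and MYC-only sites. RAD21 stands at 12.9% where HNF4A alone was kept and 5.03% where neither factor was, and CTCF at 5.05% of pair sites against 0.511% of HNF4A-only sites.

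KLF5 had an M-phase peak at 31 pair sites (1.78%, 1.21 to 2.52%), where the share over all S-phase HNF4A peaks was 3.94%, and at 14.9% of the triple sites, which had KLF5 in S phase. Among sites without KLF5, RAD21 or CTCF in S phase, it was more frequent at pair sites than at HNF4A-only sites (0.803%, a difference of 0.977 points, 0.410 to 1.73) and than at MYC-only peaks (0.811%, a difference of 0.969 points, 0.334 to 1.75). These shares rest on the M-phase KLF5 list, whose length the labels give to the IgG control, and whether that list is of KLF5 was not tested. The M-phase KLF5 library was 0.712 times as deep as that of S phase.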

How the data were processed

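ChIP-seq peak lists of HNF4A, MYC, KLF5, RAD21, CTCF and H3 in M-phase and S-phase LoVo cells were used, 12 lists from 16 libraries, grouped by sample title. The submitters' processing notes name CASAVA 1.4, BWA, MACS 1.4 and the build hg18. Per the file headers, MACS 1.4.0rc2 called peaks on merged alignments against IgG at a p-value cutoff of 1e-05 with at most 1 tag kept at a position. The tag counts of the peaks were deposited raw. As deposited, the score equals -10 log10 of the MACS p-value. The deposited fold enrichment is a ratio over IgG, and the deposited FDR is a percent.

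All listed peaks were used, with Python 3.11.15, numpy 2.4.6, pandas 2.3.3, scipy 1.17.1 and matplotlib 3.10.9. A factor was kept at a pair site if an M-phase peak overlapped the HNF4A peak, or any paired MYC peak, by 1 bp or more. Exact Clopper-Pearson intervals are given for shares, Newcombe intervals for differences, and normal intervals for paired and for standardised differences, the last weighted by the smaller class in each group of score. With 1 library per group no p-value was computed. Where a site had more than 1 MYC peak, the one of highest score gave its values. Tags per 1000000 are counts over the filtered tags in the headers. Overlap was checked against a direct comparison for a random sample of the S-phase HNF4A peaks, and standardisation with simulated kept outcomes at the deposited scores. Named sites are the 3 of highest HNF4A and of highest MYC fold in each outcome class outside chromosome 8, and the 3 nearest either side of the overlap limit. Some of them are printed. The sites, classes and alternatives were chosen with earlier results of these data known. Motifs and gene lists had been planned but need an hg18 genome and annotation, and were not analysed here.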

Additional observations from a re-analysis of the deposited data

How the results depend on the processing

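No paired analysis was possible because there was 1 library per target and phase and the results come from no test across samples. The number of pair sites, 1742, was 1037 with summits within 250 bp and 371 with both S-phase scores at least 100. The share that kept HNF4A, 11.2%, was 17.3% with that S-phase minimum, 4.94% with 50% of the M-phase and S-phase peak shared (6.68% over all HNF4A peaks), 3.67% with M-phase scores of at least 100 and 5.51% with the 1000 strongest M-phase peaks. The MYC share, 12.2%, was 18.6%, 8.84% (9.6% over all MYC peaks), 3.56% and 7.35% under the same settings, 9.53% with M-phase and S-phase summits within 250 bp, 9.71% with 50% of each HNF4A and MYC peak shared and 10.5% with their summits within 250 bp. Both factors together, 0.976%, became 2.96%, 0.344%, 0.115% and 0.344% under the first settings in the same order. Apart from 1 bp of overlap, each factor's share over all peaks was computed only with 50% of each M-phase and S-phase peak shared. Whether the other shifts are particular to pair sites was not tested. HNF4A minus MYC was above 0 under 5 and below 0 under 9 of 14 settings. It was 2.43 points (0.0664 to 4.79) with 50% of the HNF4A and MYC peaks shared, -3.90 points (-5.59 to -2.21) with 50% of the M-phase and S-phase peaks shared, and -1.84 points (-3.47 to -0.201) with the 1000 strongest M-phase peaks, and its interval included 0 under the other 11 settings. In the group strong in HNF4A, 12.9% kept HNF4A with 50% shared and 11.0% with M-phase scores of at least 100, and in the group strong in MYC, 19.4% and 9.98% kept MYC. Pair minus HNF4A-only sites was -1.86 points (-2.94 to -0.626) with 50% shared and -2.10 points over 10 groups of score, but -0.982 points (-2.41 to 0.448) over 5 groups. Pair minus triple sites was -1.41 points (-3.15 to 0.231) with 50% shared, -0.137 and -0.813 points over 10 and 5 groups, pair minus HNF4A-KLF5 sites -3.65 and -3.93 points, and MYC with HNF4A minus MYC alone -1.52 points over 5 groups. The differences by the partner's strength became 4.41 points for HNF4A and 3.30 points for MYC over 10 groups. Of 93 recomputed values, 61 stayed within the interval of the reported value or, for the number of sites, within 1.5 times, and the cause of the other 32 was not tested. The alternatives for HNF4A-KLF5 sites, the strong groups, the partner's strength and M-phase KLF5 peaks were chosen after the data were seen. An S-phase FDR limit of 5% changed nothing, since no S-phase HNF4A or MYC peak reached it. Depth sets how weak an M-phase peak could be listed, and an unlisted factor is one not detected at this depth.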
